A study of Mus musculus with 11 samples.

Results

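Cd207, Cldn1, Mfge8, Epcam, Cdh1 and Cd24a are genes of Langerhans cell (LC) identity and of adhesion between LCs and the epidermal epithelium. They were chosen by gene symbol, and all 6 were found among the 21860 genes of the deposited expression table. Their levels were read in 11 bulk RNA sequencing libraries of sorted CD11b-low EpCAM+ cells, taken on day 6 from cultures of mouse bone marrow monocytes. The study asked how Notch and aryl hydrocarbon receptor (Ahr) signals combine with other skin-derived signals in making monocyte-derived LC-like cells (mLC-like cells). Estimated depth was alike between libraries, at 20.6 to 24.2 (in units of 1e6 reads). Summed normalized counts were 21.3 to 27.8 (in units of 1e6), and 3 reads were worth 2.69 to 3.45 normalized counts.

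All cultures received the growth factor GM-CSF at 20 ng/ml. One group, Jag1 only (n = 1), received GM-CSF with Jagged-1 (Jag1), a ligand of Notch receptors. The other 4 groups also received a pair of cytokines, TGFβ (5 ng/ml) together with IL-34 (8 µg/ml). They were TGFβ/IL-34 with nothing added (n = 2), with FICZ (n = 2), with Jag1 (n = 3), and with Jag1 and FICZ (n = 3). FICZ is a small molecule ligand of Ahr, which the study names an agonist and the deposited design text an antagonist, and its dose was not given in the sources used here. Jag1 was presented by OP9 cells, a mouse bone marrow stromal line. The labels describe every sample as a co-culture with OP9 cells, yet collagen Col1a1 stood at 0 to 3.84 normalized counts in the 4 libraries without Jag1 and at 37.4 to 1345 in the 7 with it, so Jag1 and the presence of stromal cells cannot be told apart. No mouse strain, sex or age was given in the labels, and nothing in them says that replicates came from separate animals, so p-values measure the spread between these samples, which may be technical.

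LCs are phagocytes that sit among the keratinocytes of the epidermis. CD207 (Langerin), a C-type lectin that builds the Birbeck granules of LCs, is their defining marker. E-cadherin (Cdh1) joins cells through its contacts with E-cadherin on a neighbour, with catenins on its inner side. Claudin-1 (Cldn1) is a tight junction protein of the epidermis, and LCs use tight junction proteins when they push dendrites between keratinocytes. EpCAM (Epcam) is a cell adhesion protein that binds and stabilises claudins, including claudin-1. MFG-E8 (Mfge8) is a secreted bridge between phosphatidylserine on dying cells and αv integrins on phagocytes. CD24 (Cd24a) is a small, heavily glycosylated surface protein that LCs also carry.

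The sorted cells were checked against markers of other cells that the gate could hold. Keratins Krt5 and Krt14, which define basal keratinocytes, were at 0 in all 11 libraries, as was Krt19. Krt8, Krt18 and Krt10 reached at most 4.53, 42.5 and 25.9 normalized counts. Of the other listed epithelial genes, Sfn stood at 59.1 to 193 and Dsp at 4.65 to 425. Among genes listed for conventional DC1, a dendritic cell type, Xcr1, Clec9a and Cadm1 reached at most 22.0, 21.5 and 12.9. Itgae, Wdfy4 and Batf3 of that list stood at 276 to 14793, 1089 to 10555 and 692 to 5895. Levels are normalized counts throughout, and a log2 fold change is the difference of group means of log2(value + 1). In bulk samples, fewer cells that express a gene and less RNA per cell cannot be told apart.

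The 250 bases upstream of the annotated start are shown for Cd207, Cldn1 and Mfge8, because these genes fell together with FICZ, and a shorter upstream stretch is shown for Cdh1, because it holds paired binding letters for E-cadherin repressors. All are from GRCm39 with GENCODE starts, read 5′ to 3′ on the strand of the gene. Cd207 is at chr6:83654840-83655089 (minus strand), Cldn1 at chr16:26190597-26190846 (minus), Mfge8 at chr7:78798826-78799075 (minus) and Cdh1 at chr8:107329733-107329940 (plus). Capitals mark the searched letters on either strand: GCGTG (Ahr core), TGGGAA (RBPJ, the DNA-binding partner of Notch), TGTGGT (RUNX), CAGAC (Smad, which acts downstream of TGFβ) and CAGGTG (the E-box of Zeb and Snail repressors).
Cd207: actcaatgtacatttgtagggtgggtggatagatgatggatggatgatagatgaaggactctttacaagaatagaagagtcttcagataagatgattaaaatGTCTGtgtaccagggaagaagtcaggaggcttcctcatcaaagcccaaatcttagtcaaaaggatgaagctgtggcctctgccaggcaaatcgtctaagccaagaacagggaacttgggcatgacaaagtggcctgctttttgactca
Cldn1: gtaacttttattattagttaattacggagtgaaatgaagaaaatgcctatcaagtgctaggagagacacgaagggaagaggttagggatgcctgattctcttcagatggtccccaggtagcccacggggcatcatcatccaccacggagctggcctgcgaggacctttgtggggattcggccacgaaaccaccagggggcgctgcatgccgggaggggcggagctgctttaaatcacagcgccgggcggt
Mfge8: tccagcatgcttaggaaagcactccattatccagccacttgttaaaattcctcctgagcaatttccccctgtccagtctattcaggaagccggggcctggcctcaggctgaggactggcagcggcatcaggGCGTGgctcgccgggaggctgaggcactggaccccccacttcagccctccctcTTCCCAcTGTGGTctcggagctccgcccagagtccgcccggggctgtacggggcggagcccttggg
Cdh1: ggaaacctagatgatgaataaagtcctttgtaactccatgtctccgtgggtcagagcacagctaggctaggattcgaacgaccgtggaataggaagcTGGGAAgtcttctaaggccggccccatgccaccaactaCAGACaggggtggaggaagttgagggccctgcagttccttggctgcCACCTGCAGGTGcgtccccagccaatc

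The Mfge8 window held GCGTG at 119 bases, TGGGAA at 66 and TGTGGT at 59 bases before the start. The Cd207 window held CAGAC once, as its reverse complement at 148 bases, and none of the other letters. None of the 5 motifs was in the Cldn1 window. For Cdh1, 2 CAGGTG motifs lay back to back at 69 and 63 bases before the start, with TGGGAA at 153 and CAGAC at 115. 1 more CAGGTG lay at 13 bases, in the 42 bases left out of the stretch because another Cdh1 transcript starts there. The windows of Epcam and Cd24a, which are not shown, each held 1 CAGGTG, and Epcam also GCGTG at 17 bases. Among 21770 gene starts, windows of 250 bases held GCGTG in 31.2%, TGGGAA in 22.7%, CAGGTG in 17.7%, TGTGGT in 13.0% and CAGAC in 41.3%, against which the single matches are to be read. No marked motifs overlapped. A match describes letters and not a bound site.

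The genes lay on separate chromosomes of GRCm39. Cd207 (chr6:83648190-83654839, 6 exons) has 1 annotated transcript, Cldn1 (chr16:26175392-26190596) has 2 and Mfge8 (chr7:78783515-78798825) has 17. Epcam is at chr17:87943407-87958557, Cdh1 at chr8:107329941-107396880 with 16 exons and Cd24a at chr10:43454280-43460264. Cldn1, Mfge8, Epcam and Cd24a each overlap a gene on the opposite strand (lncRNAs, and for Cd24a the coding gene Mtres1), and the sources used here do not say whether strand was used in counting, so reads of such partners could have been shared.

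Per kilobase of the main transcript, Mfge8 was by far the most abundant in mLC-like cells made with TGFβ/IL-34/Jag1, with a mean level of 131123 ± 4067 normalized counts per kb (SD, n = 3). Epcam followed at 6413 ± 1963, Cd24a at 5819 ± 1942, Cldn1 at 4632 ± 120, Cdh1 at 2893 ± 1098 and Cd207 at 1057 ± 144. Epcam, Cd24a and Cldn1 were within the spread of each other. Mfge8 took 1.14% to 1.18% of all normalized counts in this group, which ranked it 4th or 5th among all genes in each of its libraries.

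**Figure D1:**
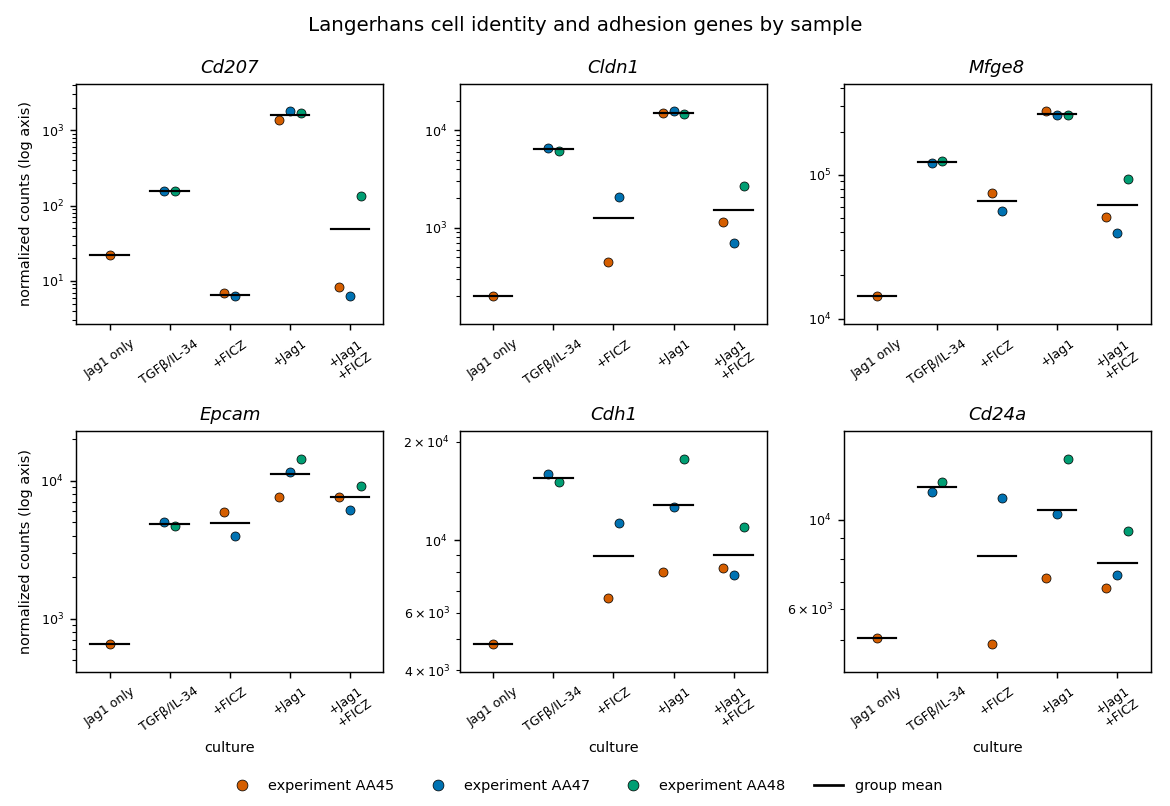
Normalized counts (log axis) of the 6 genes in each of the 11 libraries, by culture on the horizontal axis; points are libraries coloured by experiment code and bars are group means. Cd207, Cldn1 and Mfge8 peak in the 3 TGFβ/IL-34/Jag1 libraries (1366 to 1784 for Cd207), whereas the ranges of Cdh1 and Cd24a with and without Jag1 overlap.

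Cd207 stood at 157 and 154 normalized counts in the 2 TGFβ/IL-34 libraries and at 1366, 1784 and 1699 in the 3 TGFβ/IL-34/Jag1 libraries. With FICZ and no Jag1 it stood at 6.90 and 6.21, and with both it stood at 8.39, 6.29 and 132. The single Jag1 only library held 21.8. The highest levels were thus found with TGFβ, IL-34 and Jag1 combined, and no library of another group came near them. The FICZ libraries lay within a few counts of the value of 3 reads, apart from replicate 3 of TGFβ/IL-34/Jag1/FICZ, which was close to the libraries without Jag1 and FICZ.

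Cldn1 levels were 6561 and 6161 with TGFβ/IL-34 and 14946, 15498 and 14743 once Jag1 was added. They were 449 and 2083 with FICZ alone and 1148, 705 and 2679 with Jag1 and FICZ. The Jag1 only library held 200 normalized counts. Every FICZ library was therefore below every TGFβ/IL-34 library without FICZ, and the ranges with and without Jag1 separated only when FICZ was absent.

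Mfge8 levels were 121691 and 124389 with TGFβ/IL-34, and 275951, 260985 and 262392 with Jag1 in addition. They were 75340 and 55708 with FICZ, and 51262, 39376 and 93422 with Jag1 and FICZ. The Jag1 only library held 14280. As for Cldn1, the Jag1 libraries were highest and the Jag1 only library lowest, with a smaller span. In the FICZ cultures the ranges with and without Jag1 overlapped.

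Epcam, the gene of the protein used for the sort, stood at 5050 and 4706 with TGFβ/IL-34 and at 7569, 11625 and 14376 with Jag1. It stood at 5943 and 3952 with FICZ, and at 7594, 6086 and 9133 with both. The Jag1 only library held 657, although it was also gated on EpCAM protein. Jag1 libraries were the higher ones both without and with FICZ, and FICZ and no-FICZ libraries overlapped. Because all cells were selected on EpCAM protein, these levels describe cells inside the gate.

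Cdh1 levels were 15967 and 15057 with TGFβ/IL-34, and 8024, 12670 and 17750 with Jag1. They were 6655 and 11287 with FICZ, and 8209, 7817 and 10954 with both, against 4822 in the Jag1 only library. Jag1 libraries lay on both sides of the TGFβ/IL-34 pair, so the addition of Jag1 did not separate them.

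Cd24a followed the same arrangement, with 11766 and 12452 in TGFβ/IL-34, and 7174, 10340 and 14224 with Jag1. Its levels were 4891 and 11334 with FICZ, and 6737, 7268 and 9382 with both, against 5073 in the Jag1 only library. The FICZ pair differed from each other by 2.32-fold, more than the Jag1 triplet did.

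The first comparison is of Jag1 cultures with and without TGFβ and IL-34. Of the 6 genes, 4 rose in TGFβ/IL-34/Jag1 over the Jag1 only library, where 7.51% of 13095 tested genes were called higher and 9.34% lower (limma, adjusted p under 0.05). All 6 were higher in each of the 3 libraries than in that one, as were 36.7% of tested genes. Cldn1 was 75.4-fold higher (log2 fold change 6.23 ± 0.77 SE, limma adjusted p = 0.000886), Cd207 74.3-fold (6.14 ± 1.24, adjusted p = 0.00862), Mfge8 18.7-fold (4.22 ± 0.43, adjusted p = 0.000346) and Epcam 17.0-fold (4.04 ± 0.36, adjusted p = 0.000234). Cdh1 was at 2.66-fold (log2 1.34 ± 0.42, adjusted p = 0.0531) and Cd24a at 2.09-fold (1.00 ± 0.45, adjusted p = 0.165), neither of which passed. Without Jag1 replicate 1, Cdh1 passed (limma adjusted p = 0.0180). This comparison rests on 1 library without the cytokines, which the fit takes to vary like the other groups. Within experiment AA45, which holds that library, the differences were 62.8-fold for Cd207, 74.8-fold for Cldn1, 19.3-fold for Mfge8, 11.5-fold for Epcam, 1.66-fold for Cdh1 and 1.41-fold for Cd24a. Markers of other cells moved too, with 3 of 7 tested mast cell and basophil genes and 5 of 10 monocyte and macrophage genes lower and 1 of the latter higher (summed levels 6483 against 1785 to 2941, and 10577 against 4200 to 10294). Their part in the differences was not tested.

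The next comparison is of TGFβ/IL-34 cultures with and without Jag1, in which the ligand and the stromal cells that carry it cannot be told apart. Only Epcam passed, with 2.29-fold higher levels (log2 1.15 ± 0.29 SE, limma adjusted p = 0.0412), so 1 of the 6 genes was called higher against 2.64% of all tested genes, and 0 lower against 3.96%. Cd207 had the largest difference, 10.4-fold, but missed the threshold (log2 3.36 ± 0.98, adjusted p = 0.0756), as did Mfge8 at 2.17-fold (1.11 ± 0.34, adjusted p = 0.0879) and Cldn1 at 2.37-fold (1.24 ± 0.61, adjusted p = 0.319). All 4 genes were higher in each of the 3 Jag1 libraries than in both TGFβ/IL-34 libraries, a separation that 23.7% of tested genes showed in this direction. Cdh1 differed by −0.35 (95% interval −1.08 to 0.38) and Cd24a by −0.25 (−1.05 to 0.55) on the log2 scale. The fit shares 1 estimate of spread per gene over all groups, and replicates differed most for Cd207 in the group with Jag1 and FICZ (6.29 to 132) and for Cldn1 in the FICZ pair (449 to 2083). When only the groups compared entered the fit, the SE of Cd207 was 0.17 and that of Cldn1 0.11. In that fit Cd207 (adjusted p = 0.000172), Cldn1 (0.00147), Mfge8 (0.0133) and Epcam (0.0352) passed by limma. The share of all tested genes called in that fit is not given here. Over 14 alternative settings, this one included, Cd207 passed in 4, Mfge8 in 3, Cldn1 in 1 and Epcam in 8. The Epcam call was lost without either TGFβ/IL-34 library or without Jag1 replicate 2 or 3 (adjusted p = 0.107 to 0.295).

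Within experiments the Jag1 differences of Cd207, Cldn1 and Mfge8 hardly moved. In AA47 and AA48, Cd207 was higher with Jag1 by 3.50 and 3.45 on the log2 scale, Cldn1 2.36-fold and 2.39-fold, and Mfge8 2.14-fold and 2.11-fold. Epcam was 2.30-fold and 3.05-fold higher. The direction of Cdh1 turned between the experiments, with 0.793 times the TGFβ/IL-34 level in AA47 and 1.18 times in AA48. The AA47 values rest on the code in the sample description of TGFβ/IL-34 replicate 1, a library that the authors elsewhere code as AA45. Stromal RNA moved with this comparison. Of 10 tested stromal genes, 5 rose and 1, Thy1, fell. The summed level of the 13 listed was 818 to 1213 without and 635 to 1386 with Jag1. Thy1 held 790 and 1185 of the sums without Jag1 and 177 to 284 of those with it, which masks the rise of the others. Col1a2 and Fbln2 were at 0 in both libraries without Jag1 and at 69.1 to 229 and 59.5 to 169 with it, while Dcn and Lum were at 0 throughout. Of 10 monocyte and macrophage genes 2 rose and 6 fell (sums 6573 to 12803 and 4200 to 10294), and of 7 mast cell and basophil genes 4 fell (sums 6160 to 6535 and 1785 to 2941). The part of these cells in the levels of the 6 genes was not tested.

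FICZ added to TGFβ/IL-34/Jag1 compared the groups with 3 libraries each. Cd207, Cldn1 and Mfge8 fell, so that 3 of the 6 genes were called lower against 6.71% of all tested genes, and 0 higher against 10.9%. The mean of Cd207 was 33.0-fold lower (log2 fold change −6.27 ± 0.88 SE, limma adjusted p = 0.000908), that of Cldn1 9.97-fold (−3.54 ± 0.55, adjusted p = 0.00156) and that of Mfge8 4.34-fold (−2.22 ± 0.30, adjusted p = 0.000804). No library with FICZ reached the lowest one without it for these genes, a separation that 21.5% of tested genes showed in this direction. Epcam differed by −0.53 (95% interval −1.10 to 0.04, adjusted p = 0.203), Cdh1 by −0.45 (−1.11 to 0.20, adjusted p = 0.354) and Cd24a by −0.40 (−1.12 to 0.32, adjusted p = 0.466), with overlapping ranges.

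The fall was seen in each of the 3 experiments but was not of one size. Cd207 was 163-fold lower in AA45, 284-fold in AA47 and 12.9-fold in AA48. Cldn1 differed by −3.70, −4.46 and −2.46 on the log2 scale in the same order. Mfge8 was 5.38-fold, 6.63-fold and 2.81-fold lower. The AA48 library with both additions (replicate 3) held the highest level of all 6 genes in its group. It also had the most fibroblast RNA, with Col1a1 at 1345 against 222 and 625 normalized counts and Bgn at 1393 against 109 and 317, and its part in these values was not tested. Without that library, Cd207 differed by −7.60 ± 0.32 (limma adjusted p = 1.51e-05), Cldn1 by −4.06 ± 0.52 (0.00135) and Mfge8 by −2.57 ± 0.26 (0.000448).

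**Figure D2:**
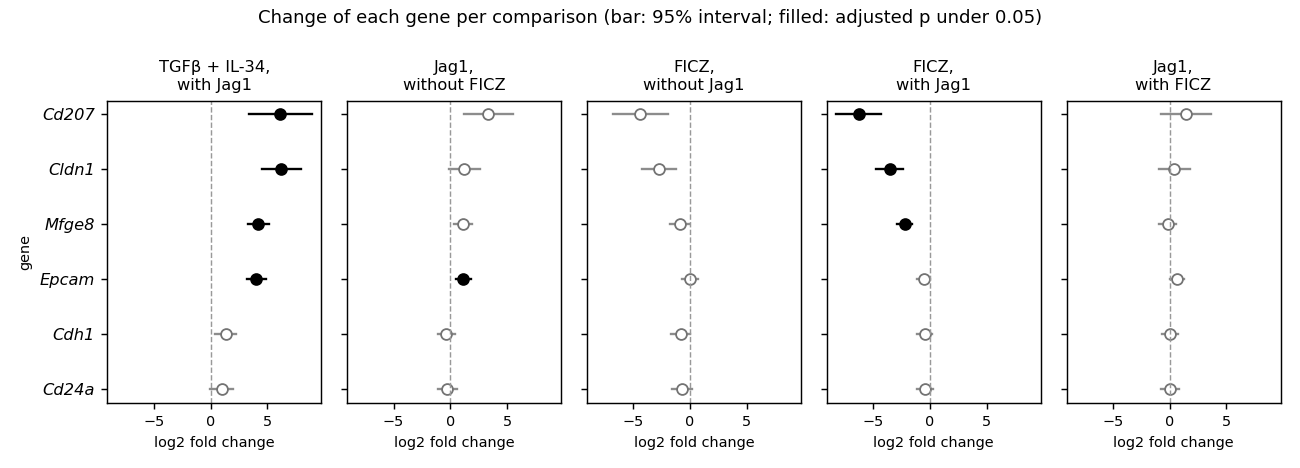
Log2 fold change (horizontal axis) of each gene in 5 comparisons; points are the limma estimates, bars their 95% intervals, and filled points passed an adjusted p of 0.05. Within the comparison of FICZ in the presence of Jag1, Cd207, Cldn1 and Mfge8 shift most of the genes (−6.27, −3.54 and −2.22). Cldn1 and Mfge8 shift further with TGFβ and IL-34 (6.23 and 4.22). With Jag1, in cultures with or without FICZ, the intervals of Cdh1 and Cd24a span 0.

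FICZ added to TGFβ/IL-34 without Jag1 called none of the 6 genes by limma, where 0.0229% of tested genes passed in either direction. At an unadjusted p under 0.05, 4 of the 6 were lower, against 8.31% of tested genes. Cd207 was 23.7-fold lower (log2 −4.37 ± 1.08, adjusted p = 0.260), Cldn1 5.02-fold (−2.71 ± 0.67, adjusted p = 0.260), Mfge8 1.88-fold (−0.93 ± 0.37, adjusted p = 0.285) and Cdh1 1.73-fold (−0.84 ± 0.36, adjusted p = 0.285). Cd207, Cldn1, Mfge8, Cdh1 and Cd24a were lower in both FICZ libraries than in both others, as were 23.1% of tested genes. Epcam differed by −0.01 (95% interval −0.71 to 0.69). The 2 FICZ libraries differed from each other in Cldn1 by 4.64-fold and in Cd24a by 2.32-fold. Leaving out replicate 2 leaves 1 FICZ library, so only the log2 differences are given for that fit. They were −4.31 for Cd207, −3.82 for Cldn1, −1.22 for Cdh1 and −1.31 for Cd24a. Replicate 1 of this group also held more Thy1 (12178 against 3578) and less of Itgam, the gene of the gate protein CD11b (1245 against 5779), and their part in the difference was not tested. Granulocyte progenitor genes summed to 384 to 1599 without FICZ and to 3143 to 4951 with it, and 0 of the 9 tested passed. The part of such cells was not tested either.

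With Jag1 and FICZ together against neither, no member passed by limma, where 4.48% of tested genes passed in either direction. At an unadjusted p under 0.05, 4 were lower, against 7.32% of tested genes, and Cldn1 came nearest to the threshold (log2 −2.30 ± 0.61, adjusted p = 0.0638). Cd207 differed by −2.91 ± 0.98 (adjusted p = 0.140), Mfge8 by −1.10 ± 0.34 (0.106) and Cdh1 by −0.80 ± 0.33 (0.231). Epcam was the only member that was higher, by 0.62 ± 0.29 (adjusted p = 0.296). The ranges of all 6 were apart, as they were for 25.5% of tested genes that were lower and 28.8% that were higher. With replicate 3 of the group given both additions left out, Cd207 (adjusted p = 0.00140), Cldn1 (0.0399) and Mfge8 (0.0359) passed. Markers of other cells moved here too. Of 10 tested stromal genes 8 rose and 0 fell, and of 9 granulocyte progenitor genes 5 rose and 0 fell. Of 7 mast cell and basophil genes 2 rose and 0 fell, and of 10 monocyte and macrophage genes 1 rose and 3 fell. The part of these cells was not tested. These comparisons share their TGFβ/IL-34 libraries with the Jag1 and FICZ comparisons above.

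Jag1 in the presence of FICZ called no member by limma (2.02% of tested genes passed in either direction), and no member was under an unadjusted p of 0.05, against 23.2% of tested genes. Cldn1 differed by 0.42 (95% interval −0.94 to 1.78), Mfge8 by −0.18 (−0.93 to 0.58), Cdh1 by 0.04 (−0.70 to 0.77) and Cd24a by 0.05 (−0.75 to 0.85), and all of these turned sign under other settings. Epcam was nearest to a difference at 1.54-fold (log2 0.63, interval −0.01 to 1.27, adjusted p = 0.218), with its 3 libraries above both FICZ libraries, as for 19.6% of tested genes. Cd207 differed by 1.47 (interval −0.72 to 3.65), which came from 1 library, since without replicate 3 it was 0.13. Without TGFβ/IL-34/FICZ replicate 2, Cldn1 differed by 1.52, but that fit holds 1 library with FICZ and no Jag1.

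The difference between the FICZ effects in Jag1 and Jag1-free cultures was tested as an interaction term. None of the 6 genes passed by limma, where 1.39% of tested genes did in either direction, and 1 (Mfge8) was under an unadjusted p of 0.05, against 18.8%. For Mfge8 the FICZ effect with Jag1 minus that without it was −1.29 ± 0.48 on the log2 scale (95% interval −2.36 to −0.22, adjusted p = 0.209). Estimates for Cd207 (−1.89 ± 1.39, adjusted p = 0.436) and Cldn1 (−0.82 ± 0.87, adjusted p = 0.579) were smaller than 2 standard errors. Without 1 library the call of Cd207 changed: it passed without TGFβ/IL-34/Jag1/FICZ replicate 3 (limma adjusted p = 0.0324). Over all fits with 1 library left out, the Mfge8 estimate ran from −1.64 to −1.02.

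The 6 genes differed in what their levels followed. Group membership held 94.8% of the variance of log2 levels for Mfge8, 94.2% for Epcam, 90.9% for Cldn1 and 89.8% for Cd207, against 68.0% for Cdh1 and 50.9% for Cd24a. These shares count the Jag1 only library, which is its own group mean and so adds only to the part between groups. For Epcam it stood at 657, against 3952 to 14376 in all others. The experiment code took a further 22.3% for Cdh1 and 36.3% for Cd24a, and at most 3.91% for the others. In the triplet with Jag1, Cdh1 and Cd24a were lowest in AA45 and highest in AA48. In the FICZ pair, AA45 was again the lower library for both. With Jag1 and FICZ, AA48 was again highest for both, while the lowest was AA47 for Cdh1 and AA45 for Cd24a. The TGFβ/IL-34 pair, from AA47 and AA48, differed by 1.06-fold for either gene, with AA48 the lower for Cdh1 and the higher for Cd24a. The code names an experiment in the sample descriptions, and what differed between the experiments was not given in the labels.

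Cdh1 and Cd24a rose and fell together, with Pearson r = 0.961 and Spearman rho = 0.936 over the 11 libraries, and r = 0.945 for deviations from group means in the 10 libraries of groups with replicates. These libraries share experiments, so the correlation is a description. Cd207, Cldn1 and Mfge8 were alike over the 11 libraries (r = 0.833 to 0.935). For deviations from group means, r was 0.920 for Cd207 and Mfge8, 0.610 for Cd207 and Cldn1 and 0.380 for Cldn1 and Mfge8, while Cldn1 went with Cd24a at 0.715 and with Cdh1 at 0.613. Cldn1 and Cdh1, both junction proteins of the epidermis, had r = 0.793 over the 11 libraries, a little below that range. In the 3 Jag1 libraries Cldn1 varied by 1.05-fold while Cdh1 varied by 2.21-fold.

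**Figure D3:**
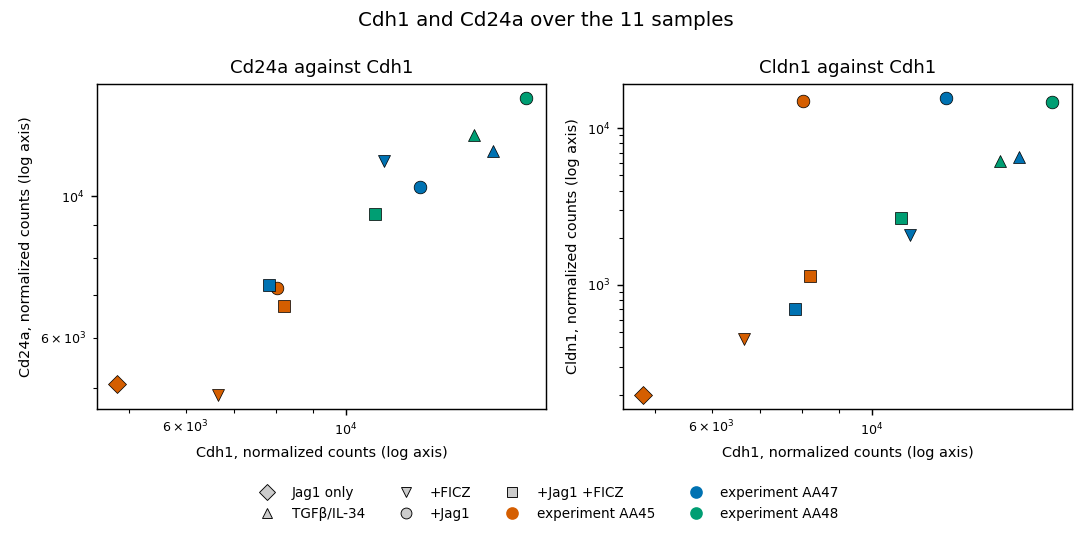
Normalized counts (log axes) of Cd24a (left) and Cldn1 (right) against Cdh1 in the 11 libraries; symbols are cultures and colours experiment codes. Cd24a follows Cdh1 across cultures (r = 0.961), and Cldn1 does so less closely (r = 0.793). The 3 TGFβ/IL-34/Jag1 libraries keep Cldn1 at 14743 to 15498 over a 2.21-fold span of Cdh1.

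Set against Epcam in the same library, each of the other transcripts differed between some cultures and overlapped between others. Per 1000 Epcam counts, Cd207 stood at 118 to 181 with TGFβ/IL-34/Jag1, at 31.0 and 32.8 with TGFβ/IL-34, and at 1.16 and 1.57 with FICZ. It stood at 1.03 to 14.5 with Jag1 and FICZ, and at 33.1 in the Jag1 only library. Mfge8 stood at 18251 to 36460 with TGFβ/IL-34/Jag1, which enclosed the 24095 and 26431 with TGFβ/IL-34. It was lower with FICZ, at 12677 and 14098, and with Jag1 and FICZ, at 6470 to 10230. Cldn1 stood at 1026 to 1975 with Jag1 and at 1299 and 1309 without it, so that relative to Epcam its range with Jag1 enclosed that without. Cldn1 fell to 116 to 293 per 1000 Epcam counts with Jag1 and FICZ. For Cdh1 the ratio was 3162 and 3199 with TGFβ/IL-34, and 1060 to 1235 with Jag1, which was no higher than the 1081 to 1284 with Jag1 and FICZ. For Cd24a it was 2330 and 2646 with TGFβ/IL-34, 889 to 989 with Jag1 and 887 to 1194 with Jag1 and FICZ. With FICZ alone the Cd24a ratio was 823 and 2868.

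Among claudins, Cldn1 stood nearly alone. Of 32 claudin genes in the table, 19 were at 0 in every library, 6 reached 10 normalized counts in any, and 2 had a mean of at least 100, Cldn1 and Cldn12 (83.9 to 405). Of the 24 other claudin and tight junction genes counted, 11 could be tested. In the comparison in which Cldn1 fell with FICZ in the presence of Jag1, Cldn15 rose from 0 to 0.642 normalized counts to 38.0 to 80.8 (log2 5.64 ± 0.73, limma adjusted p = 0.000579), and the polarity scaffold Patj fell (−1.09 ± 0.29, adjusted p = 0.0250). Occludin (Ocln), a tight junction membrane protein, stood at 360 to 662 over all libraries. With TGFβ and IL-34, the tight junction scaffold Tjp1 rose with Cldn1 (2.23 ± 0.45, adjusted p = 0.00856), while Cldn10 fell (−4.97 ± 1.03, adjusted p = 0.00943).

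Among the partners of EpCAM, Fhl2, a cofactor that binds its inner part, was low in the cultures with Jag1 and no FICZ. Fhl2 stood at 155 and 144 with TGFβ/IL-34, at 26.1, 35.4 and 30.6 with Jag1, and at 168, 169 and 222 with Jag1 and FICZ. It stood at 308 and 191 with FICZ and at 39.4 in the Jag1 only library. It fell with Jag1 (log2 −2.26 ± 0.32, limma adjusted p = 0.00256) and rose when FICZ was added to Jag1 (2.56 ± 0.28, adjusted p = 0.000253). The matriptase inhibitor Spint1 fell with Jag1 (−1.12 ± 0.25, adjusted p = 0.0268) and rose with FICZ in its presence (0.82 ± 0.23, adjusted p = 0.0319). In all, of 13 tested genes of EpCAM partners and processing, 0 rose and 2 fell with Jag1 (median log2 difference −0.29, against −0.004 over all tested genes), and 2 rose and 1, the tetraspanin Cd9, fell with FICZ in its presence (median 0.079, against −0.01). The proteases and secretase subunits that cut EpCAM did not pass in either comparison.

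Among cadherins, Cdh1 was the most abundant in count, and 3 of 23 cadherin genes had a mean of at least 100 (Cdh1, Cdh17 and Cdh23). Of 14 tested cadherin, catenin and nectin genes and E-cadherin partners, 1 rose and 2 fell with Jag1, with a median log2 difference of 0.10. Nectin4, an adherens junction protein, rose (1.03 ± 0.25, adjusted p = 0.0340), and the neural cadherin Cdh2, at 26.5 normalized counts or less, fell (−2.97 ± 0.75, adjusted p = 0.0430). Itgb7, a subunit of the αEβ7 integrin that binds E-cadherin, fell from 4887 and 4995 to 252, 474 and 785 (−3.44 ± 0.40, adjusted p = 0.000904). With FICZ in the presence of Jag1, Itgb7 rose (3.00 ± 0.36, adjusted p = 0.000385) and Nectin4 fell (−1.35 ± 0.22, adjusted p = 0.00215). The catenins Ctnnb1 (4744 to 7115) and Ctnnd1 (1005 to 4620) passed in neither.

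E-cadherin repressors of the Snail, Zeb and Twist families are known to act through E-box letters, and binding was not measured here. Twist2 was at 0 in every library, Snai2 and Twist1 reached 23.7 and 16.5 at most, and 4 of the 7 listed genes could be tested. Snai1 was the 1 that passed with Jag1, where it rose from 22.8 and 22.9 to 306, 145 and 126 normalized counts (2.90 ± 0.61, limma adjusted p = 0.0185). Zeb1 (479 to 2106) and Zeb2 (130 to 1032) passed with neither Jag1 nor FICZ in its presence. With Jag1, Cdh1 differed by −0.35 ± 0.33. Snai1 was also higher with TGFβ and IL-34, against the single Jag1 only library (2.79 ± 0.77), while Tcf3 of the same list was lower (−0.81 ± 0.19). In that comparison Cdh1 was higher, by 1.34 ± 0.42.

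Among partners of MFG-E8 and CD24, Itgb3, a subunit of the αvβ3 integrin that binds MFG-E8, rose with FICZ in the presence of Jag1 (1.65 ± 0.33, limma adjusted p = 0.00593) while Itgb5 of αvβ5 fell (−1.46 ± 0.35, adjusted p = 0.0151). Lyn, a Src-family kinase, rose with Jag1 (0.70 ± 0.16, adjusted p = 0.0265) and fell with FICZ in its presence (−0.81 ± 0.14, adjusted p = 0.00290). Of the 6 tested genes of this list, 1 rose with Jag1 and 0 fell, and 1 rose and 2 fell with FICZ in its presence. Siglecg, the receptor for CD24, was at 160 to 1029 and passed in neither.

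**Figure D4:**
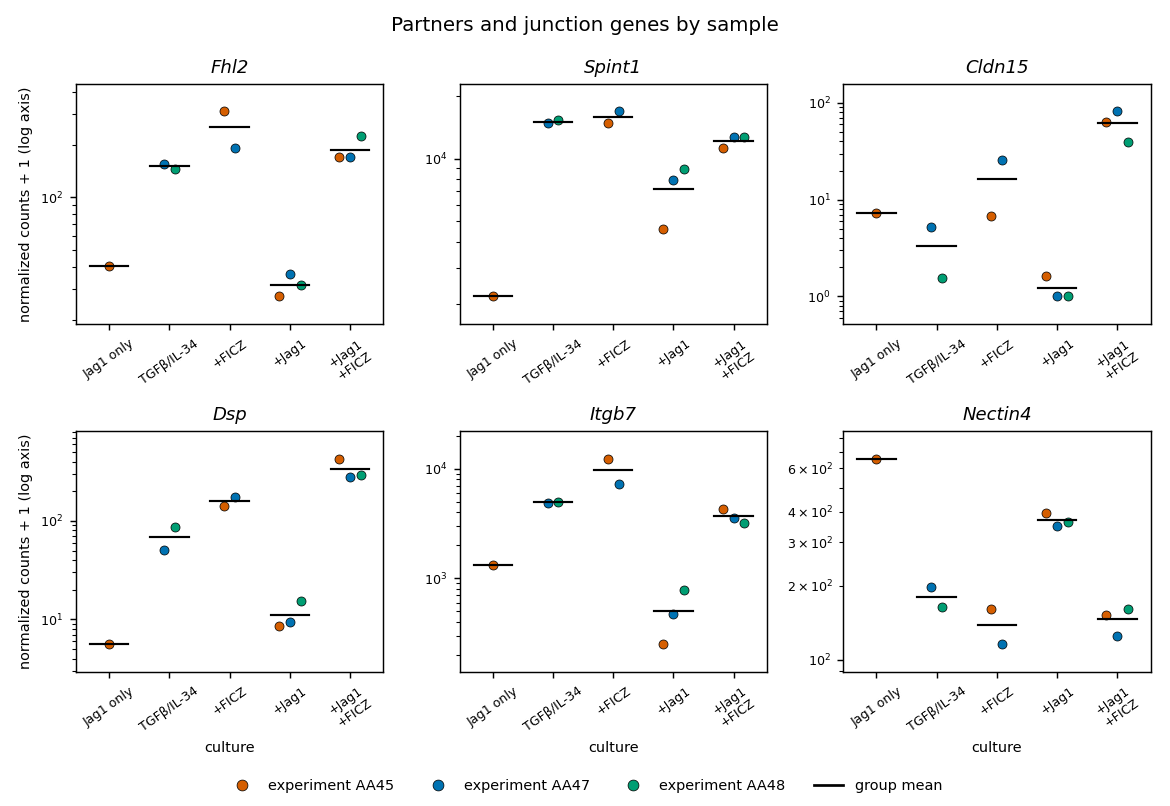
Normalized counts + 1 (log axis) of 6 partners or junction genes by culture; points are libraries coloured by experiment code, bars group means. They were picked for display after their values were seen, from those that passed in the FICZ comparison with Jag1: among the TGFβ/IL-34 groups 5 have their lowest mean with Jag1 (Fhl2 at 26.1 to 35.4), and Nectin4 is higher there than in the others.

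Other genes of the LC programme were counted from lists. Of 10 LC regulators, all tested, Runx3, a transcription factor that LCs need, was the 1 that rose with Jag1 (0.96 ± 0.19, limma adjusted p = 0.0141), and 0 fell. With FICZ in the presence of Jag1, 3 fell and 1 rose: Bcl11a (−3.03 ± 0.80, adjusted p = 0.0253), Ahr itself (−1.34 ± 0.38, adjusted p = 0.0355) and Irf4 (−0.72 ± 0.18, adjusted p = 0.0198) fell, and Runx1 rose (1.46 ± 0.35, adjusted p = 0.0170). Id2, another factor required by LCs, was at 7538 to 24236 and was highest in the Jag1 only library, where Cldn1 was lowest. With TGFβ and IL-34, 2 regulators rose, Spi1 (0.97 ± 0.26, adjusted p = 0.0292) and Irf4 (0.88 ± 0.25, adjusted p = 0.0403), and 1, Id2, fell (−1.21 ± 0.29, adjusted p = 0.0193). Of 13 LC surface and lipid genes, 6 rose and 0 fell with TGFβ and IL-34, among them the lysophosphatidic acid receptor Lpar3 (5.47 ± 0.68, adjusted p = 0.000876), Ptgs1 (5.13 ± 0.61, adjusted p = 0.000788) and Hpgds (5.03 ± 0.49, adjusted p = 0.000278) of prostaglandin synthesis, and Csf1r, the receptor for IL-34 (3.37 ± 0.52, adjusted p = 0.00254). With Jag1 and no FICZ, 0 of these 13 genes rose and 1, Adgre1, fell (−1.13 ± 0.28, limma adjusted p = 0.0388). With FICZ in the presence of Jag1, 0 rose and 3 fell: Lpar3 (−3.25 ± 0.48, adjusted p = 0.00119), Csf1r (−1.88 ± 0.37, adjusted p = 0.00583) and Hpgds (−1.75 ± 0.35, adjusted p = 0.00618).

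Markers of other cells moved with the FICZ comparison in which Cd207, Cldn1 and Mfge8 fell. Of 9 tested granulocyte progenitor genes 7 rose and 0 fell, and the summed level of the 10 listed genes was 267 to 375 normalized counts without and 8403 to 12973 with FICZ. Elane, neutrophil elastase, was at 0 to 9.07 and at 2094 to 3694, while the other defining granule gene Mpo stayed at 3.42 to 12.2 and 3.75 to 4.29. Of 7 tested mast cell and basophil genes 5 rose and 0 fell (sums 1785 to 2941 and 9429 to 12788). Of 10 tested stromal genes 3 rose and 0 fell (sums 635 to 1386 and 14979 to 17106, the latter mostly Thy1). Thy1 alone stood at 177 to 284 without and at 12187 to 16084 with FICZ. It also stood at 12178 and 3578 in the FICZ libraries without Jag1, where Col1a1 was at 0, so these sums do not measure stromal RNA. Of 10 monocyte and macrophage genes 4 rose and 2 fell (sums 4200 to 10294 and 6552 to 7687). The monocyte genes Plac8 (5.28 ± 0.33, limma adjusted p = 1.02e-05) and Ly6c2 (5.25 ± 0.36, adjusted p = 1.67e-05) rose, as did Ccr2 and Lyz2, and the macrophage genes C1qa (−3.28 ± 0.50, adjusted p = 0.00143) and Mertk (−2.62 ± 0.33, adjusted p = 0.000495) fell. Their part in the fall was not tested. The desmosome gene Dsp, on the list of epithelial genes, rose from 7.61, 8.38 and 14.4 to 425, 279 and 292 (log2 4.92 ± 0.37, limma adjusted p = 3.02e-05), with Krt5 and Krt14 at 0 throughout.

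The genes whose log2 levels were most like those of each member, among 10917 genes with a mean of at least 50 and over the 11 libraries, were H2-Ob, Bcar3 and Cdh17 for Cd207 (r = 0.970, 0.970 and 0.967), Tbc1d16, Fgd3 and Apbb2 for Cldn1 (0.989, 0.974 and 0.972), and Trim47, Cyb561 and B3gnt7 for Mfge8 (0.977, 0.976 and 0.969). Epcam was most like Gsn, Oasl2 and Msmo1 (0.965, 0.947 and 0.945). Marchf1 headed the list for both Cdh1 (0.978) and Cd24a (0.973). H2-Ob, a chain of the class II peptide-loading regulator H2-O, stood at 6624 ± 829 normalized counts (SD, n = 3) with TGFβ/IL-34/Jag1 and at 1486 ± 360 (SD, n = 3) with FICZ in addition. Cdh17, a cadherin that lacks the catenin-binding tail of Cdh1, went from 3592 ± 963 to 1001 ± 320 in the same groups. These r values describe libraries that share cultures and experiments.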

How the data were processed

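Bulk RNA sequencing libraries of 11 samples were grouped into 5 cultures by their labels. Per the study's methods, salmon quantification on Ensembl transcripts (GRCm39), tximport and DESeq2 scaling were done by the authors (versions not given in the sources used here). The deposited values are a normalized signal per gene, called normalized counts here. Of low values, 51.7% to 57.8% per sample were whole reads (within 0.1 steps), against 80.5% to 98.2% in genes of 1 transcript, so no count model was run. The estimated depth was 20.6 to 24.2 (in units of 1e6 reads) per sample. This limits the precision of genes at a few reads, and floors of 3 reads cover counting error only. All columns were mapped to samples.

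Genes with at least 10 in at least 2 samples (13095) entered as log2(value + 1). The model was limma 3.58.1 under R 4.3.3 (trend), with 1 mean per group over all 11 samples, 6 residual degrees of freedom, two-sided, with Benjamini-Hochberg adjustment over all genes in each of 7 contrasts and a threshold of 0.05. The code was tested on simulated data: for the Jag1 effect (12905 genes), 35 of 100 genes changed 2-fold and 64 of 100 changed 4-fold were recovered. Sequences and coordinates are GRCm39 with GENCODE annotation.

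The members and lists were chosen with earlier results of these data known, and Cd207, Epcam, Cldn1 and Mfge8 were named by the study for these samples. Named genes were the 6 members, up to 4 passing genes per list and contrast, list genes that a background clause needs, and for each member the 3 genes of highest r. Replicate numbers pair the Jag1 triplet with the triplet given Jag1 and FICZ: they carry the same experiment codes, and same-numbered samples deviated together (r = 0.153, 0.122 and 0.166 across genes). In the comparison of Jag1 with FICZ the numbers also carry the same codes, but there are 2 pairs and r was 0.059 and 0.058. In those against TGFβ/IL-34 same-numbered samples have different codes. For 1 sample, TGFβ/IL-34 replicate 1, a second table of the authors gives another experiment code than the sample description, which was used here. Some genes of the lists are not reported here and enter no list count.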

Additional observations from a re-analysis of the deposited data

How the results depend on the processing

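The calls of Cd207, Cldn1 and Mfge8 in the FICZ comparison with Jag1, and of these genes and Epcam with TGFβ and IL-34, held under every alternative run (adjusted p at most 0.00941 and 0.0252). Of 605 values of single genes over 19 alternatives, 540 kept direction and side of the threshold. With only the groups compared, Cd207 for Jag1 with FICZ had too few values above the filter to be tested. The number of genes called with Jag1 alone (1) was 2 with a pseudocount of 4, 0 with no filter, 4 with only the groups compared, and 3 with array weights. With Jag1 and FICZ together (0) it was 1 under quantile normalization, 5 with only the groups compared and 6 with array weights. Leaving out 1 library gave 0 to 1 with Jag1 alone, 0 to 3 with both and 0 to 1 for the interaction. For FICZ alone and for Jag1 with FICZ these counts are not given, because they turn on fits that leave 1 FICZ library. The cause was not tested.

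With the replicate number as a block, calls were 0 with Jag1 alone (Epcam adjusted p = 0.0738) and 1 with both (Cd207, log2 −3.59, adjusted p = 0.0480). It changed no other call. The experiment code of the authors' second table as a block, chosen after seeing the data, called 3 genes with Jag1 alone.

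Values that turned sign were all of genes not called. For Jag1 with FICZ these were Mfge8 (0.15 under quantile normalization), Cdh1 (−0.17, −0.13 and −0.094) and Cd24a (−0.14, −0.12 and −0.071) with the number, the description's code and the second table's code as a block. Epcam with FICZ alone was 0.16 and 0.22 under the 2 code blocks, and Cd24a in the interaction −0.12 under the first. With 1 library left out, ranges for Jag1 with FICZ were −0.69 to 1.52 for Cldn1, −0.53 to 0.10 for Mfge8, −0.34 to 0.42 for Cdh1 and −0.55 to 0.66 for Cd24a. They were −0.30 to 0.29 for Epcam with FICZ alone, −0.49 to 0.0028 for Cd24a with Jag1 alone, and −1.93 to 0.28 for Cldn1 and −0.30 to 0.91 for Cd24a in the interaction.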
